A study of Mus musculus with 46 samples.

Results

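Gene expression was compared between the testes of mice that drank acrylamide in water at 0.01 µg/ml over 1 month and the testes of control mice of the same time point. The 6 arrays were taken by their titles: replicates 1 to 3 of 0.01 µg/ml at 1 month and replicates 1 to 3 of the control at 1 month, of 46 arrays in all. The study gave adult male Swiss mice no acrylamide or 0.001, 0.01, 0.1, 1 or 10 µg/ml of it in the drinking water for 1, 6 or 12 months. Biotin-labelled RNA from single testes was measured on Illumina bead arrays for the mouse, 1 array per sample. Both groups here were 3 to 6 months old per the labels, which give acrylamide as the difference between them and name no slide or batch. Mice of the 6-month groups were 11 to 12 months old and those of the 12-month groups 16 to 17 months old. Swiss mice are commonly kept as an outbred stock, and the labels give no genotype or relation between the mice. The labels do not say outright that each array is a different mouse, so the p-values measure the spread between these samples. The question is what the second lowest of 5 concentrations did to the testis transcriptome after the shortest exposure.

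Acrylamide is a small electrophile that forms when starchy food is heated. The cytochrome P450 enzyme Cyp2e1 oxidises it to the epoxide glycidamide, which binds DNA, and glutathione conjugation removes both compounds. Kinesin motors, and in sperm the protamines, have been studied as protein targets of acrylamide. The testis is mostly germ cells: spermatogonia divide, spermatocytes pass through meiosis, and round spermatids elongate into sperm, while Sertoli cells nurse them and Leydig cells make testosterone. Germ cells use their own isoenzymes of sugar metabolism, among them lactate dehydrogenase C.

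The tissue label was borne out by germ cell genes: 24 elongating spermatid genes had a mean log2 value of 12.53 to 12.72 on the 6 arrays, the highest of the 26 lists. Of 16 epididymis genes on the array 7 were bright enough to be tested, and their mean was 8.62 to 8.85, with the lowest values of any probe at 7.55. Of 13 adipose tissue genes 9 were tested, with a mean of 8.21 to 8.30. Cyp2e1 itself was dim, at 7.71, 7.69 and 7.79 in the controls and 7.76, 7.85 and 7.70 at 0.01 µg/ml.

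The array that stood apart from the whole series was replicate 3 of 0.001 µg/ml at 1 month, whose correlation with each other array averaged 0.844. It is not among the 6 arrays, but the spread was pooled over all 46, and it enters the tests in that way. Replicate 2 of 0.01 µg/ml came next, with an average of 0.974. The labels number the samples, and since arrays of this kind come 8 to a slide while no slide is named, 8 consecutive numbers were taken as a set. The 3 controls and replicates 1 and 2 of 0.01 µg/ml have numbers of the first set, and replicate 3 of 0.01 µg/ml has the first number of the second. The replicates of 0.01 µg/ml differed more among themselves than the controls did: the root mean square difference over the 15418 probes tested was 0.185 to 0.232 between pairs of treated arrays, 0.133 to 0.160 between pairs of controls and 0.147 to 0.201 between a control and a treated array. Median intensities before normalization were 182 and 214 in control replicates 2 and 3 and 177, 180 and 166 at 0.01 µg/ml, within the range of 108 to 221 over 45 arrays.

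No gene passed the test at 0.01 µg/ml. Of 15418 probes 0 had an adjusted p under 0.05 in the limma fit (0%), and 308 had an unadjusted p under 0.05 (2%), of which 168 (1.09%) were higher and 140 (0.908%) lower than control. The values of the 3 treated arrays all lay above or all below those of the 3 controls for 1595 probes (10.3%), 727 above (4.72%) and 868 below (5.63%). The median difference over all probes was -0.0042 on the log2 scale. With 3 arrays against 3 an exact two-sided permutation test of a single gene cannot go below 0.1. All differences below are therefore values of genes that did not pass the test, given in log2 units with the standard error of the fit.

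Ldhc, the lactate dehydrogenase of germ cells and sperm, came nearest to the threshold. Its probe ILMN_2665749 was at 13.57, 13.90 and 13.82 in control replicates 1 to 3 and at 14.31, 14.17 and 14.10 in replicates 1 to 3 of 0.01 µg/ml. The groups did not overlap, and the difference was 0.43 ± 0.08 (adjusted p = 0.101). The other probes of the gene showed 0.37 ± 0.11 and 0.20 ± 0.12, the first without overlap and the second with overlap. Ldhc passed when either of 2 arrays was left out: without the array of 0.001 µg/ml that stood apart, which is outside the comparison, the adjusted p was 0.0315, and without control replicate 2 it was 0.0427 with a difference of 0.49. Over 15 other settings the adjusted p ran from 0.00167 to 1.00 and the difference from 0.41 to 0.47.

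The controls at 1 month had the lowest mean for this probe of all 18 groups, 13.76 ± 0.17 (SD, n = 3). The 0.01 µg/ml group at 1 month was at 14.19 ± 0.10 (SD, n = 3), and the controls of 6 and 12 months were at 14.08 ± 0.03 (SD, n = 3) and 14.22 ± 0.01 (SD, n = 2). Ldhc is among the brightest probes, and its rank from the brightest was 77, 32 and 39 on the control arrays and 5, 13 and 17 on the treated ones. In the intensities before normalization it was at 19841 and 24244.5 in control replicates 2 and 3 and at 22424, 23367.5 and 18563.2 at 0.01 µg/ml. On that scale the treated arrays overlapped these 2 controls. Control replicate 1, the lowest array on the log2 scale, had no intensity in use. The intensities are not adjusted for differences between arrays, whose medians were 214 in control replicate 3 and 166 in treated replicate 3. The overlap therefore does not decide whether the groups differed.

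The DNA around the annotated starts of Ldhc and Abhd16a is shown because these genes had the smallest p and the largest difference. Each window holds 300 bases, mostly before the start, from RefSeq's table of GRCm38.p6, both on the plus strand, at chr7:46861013-46861312 for Ldhc and chr17:35089041-35089340 for Abhd16a. Capitals mark the GC box GGGCGG and the core TGACG of the cAMP response element, searched on both strands.
Ldhc: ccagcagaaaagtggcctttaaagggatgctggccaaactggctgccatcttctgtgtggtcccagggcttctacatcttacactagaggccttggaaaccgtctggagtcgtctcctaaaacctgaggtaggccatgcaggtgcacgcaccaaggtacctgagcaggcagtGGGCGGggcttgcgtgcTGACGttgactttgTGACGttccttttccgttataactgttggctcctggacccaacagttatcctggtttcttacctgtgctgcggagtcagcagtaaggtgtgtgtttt
Abhd16a: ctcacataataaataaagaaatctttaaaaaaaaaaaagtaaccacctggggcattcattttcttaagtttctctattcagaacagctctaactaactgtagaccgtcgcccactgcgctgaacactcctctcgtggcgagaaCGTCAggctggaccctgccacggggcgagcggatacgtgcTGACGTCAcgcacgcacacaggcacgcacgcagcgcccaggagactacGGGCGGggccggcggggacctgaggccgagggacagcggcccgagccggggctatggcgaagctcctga
The Ldhc window holds 1 GC box and 2 cores, and the Abhd16a window 1 GC box and 3 cores, of which a pair overlaps. Neither holds TATAAA. Of 32851 promoter windows of this length, 35.7% hold a GC box, 20.8% a core and 13.6% TATAAA. RefSeq lists a second start of Ldhc, at chr7:46861237-46861536, with none of these letters. The expression values do not bear on whether any of these sites is used.

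**Figure D1:**
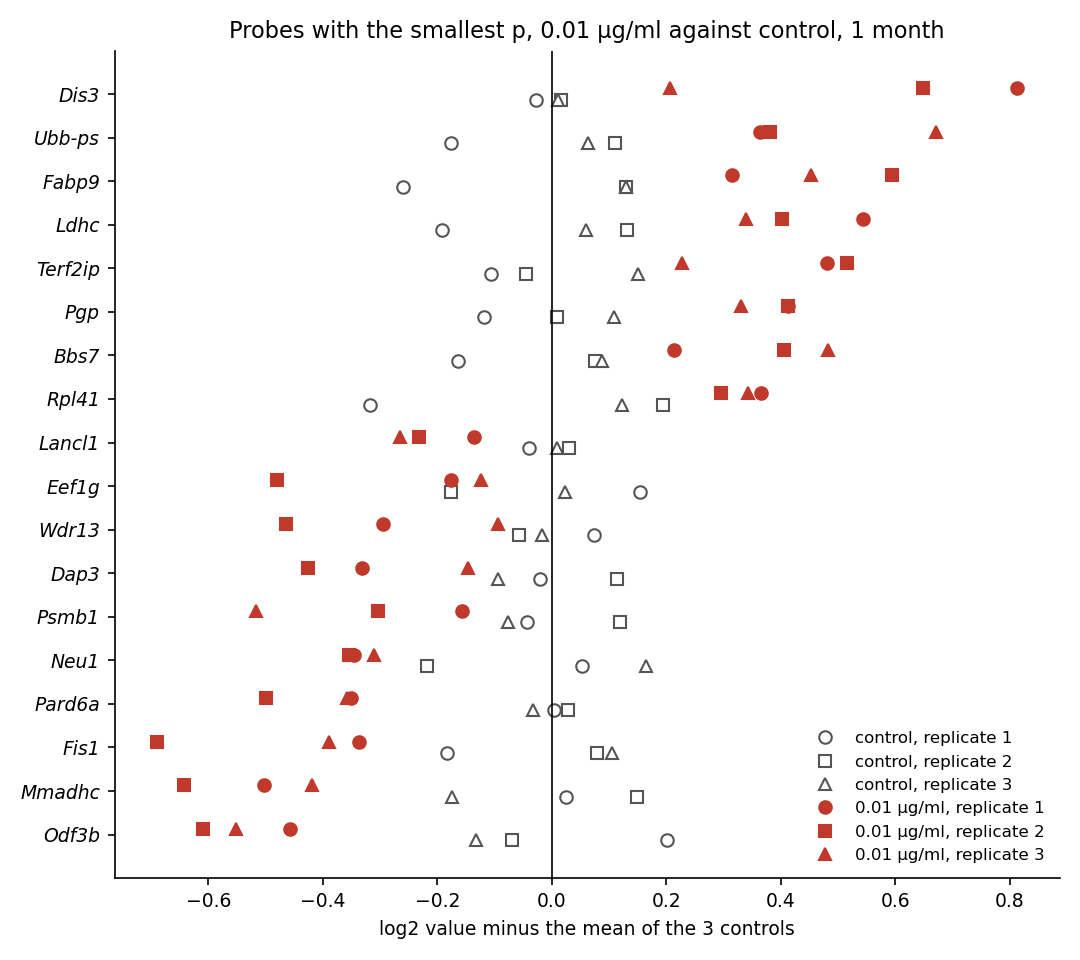
Values of the 18 named probes among the 20 with the smallest p whose difference is under 1, each minus the mean of the 3 controls, on the log2 scale (x axis), by gene (y axis). Open grey symbols are control arrays and filled red symbols arrays of 0.01 µg/ml, with the shape giving the replicate. Only in Eef1g do the groups overlap, with treated replicates 1 and 3 at 13.90 and 13.96 and control replicate 2 at 13.90.

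Other bright germ cell and housekeeping genes stood beside Ldhc. Ubb-ps, a pseudogene of the polyubiquitin gene Ubb, was at 13.55, 13.83 and 13.79 in the controls and 14.09, 14.10 and 14.39 at 0.01 µg/ml (probe ILMN_3157823, 0.47 ± 0.11, adjusted p = 0.911). Its second probe showed 0.27 ± 0.11, and since the pseudogene resembles its parent, which of them the probe measured is uncertain. Fabp9, the fatty acid-binding protein of the sperm head's perforatorium, was at 13.54, 13.93 and 13.93 in the controls and 14.11, 14.39 and 14.25 in the treated arrays (0.45 ± 0.11).

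Pgp, a phosphatase that removes phosphoglycolate and other side products of glycolysis, was at 13.52, 13.65 and 13.75 against 14.05, 14.05 and 13.97 (0.39 ± 0.10). Rpl41, a protein of the large ribosomal subunit, was at 13.67, 14.19 and 14.11 against 14.36, 14.29 and 14.33 (0.33 ± 0.09). Prm1, the protamine that packs sperm DNA, was at 13.40, 13.64 and 13.61 against 13.80, 13.76 and 14.03 (0.31 ± 0.14). In each of these genes the groups did not overlap, and control replicate 1 was the lowest of the 6 arrays.

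These values lie at the top of the scale. Of the 79 probes with a mean of at least 13.5 over the 46 arrays, 11 were higher and 7 lower at an unadjusted p under 0.05. Over all 15418 probes 1.09% were higher and 0.908% lower at that level. Of the 79, 22.8% did not overlap, against 10.3% of all probes. Some of these probes share a gene, as with Ldhc and Ubb-ps. Among the 103 probes from 13 to 13.5 the counts were 1 higher and 0 lower, with 10.7% not overlapping. Before normalization Ubb-ps was at 19552 and 23777.8 in control replicates 2 and 3. At 0.01 µg/ml it was at 20557, 22673.9 and 20985.3, which overlaps those controls. Again control replicate 1 had no intensity in use, and the arrays were not adjusted to a common level. The part of the probes' brightness in the log2 differences was not tested.

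**Figure D2:**
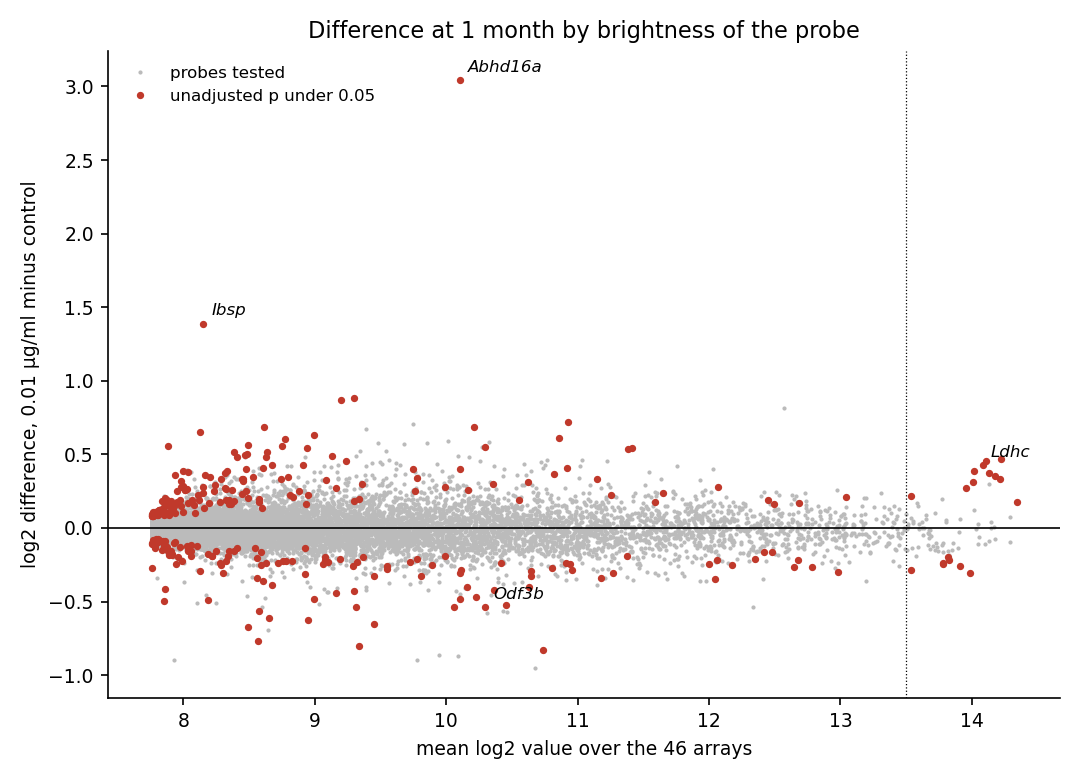
Log2 difference between 0.01 µg/ml and control at 1 month (y axis) against the mean log2 value over the 46 arrays (x axis) for the 15418 probes tested. Grey points are all probes and red points the 308 with an unadjusted p under 0.05. Right of the dotted line at 13.5 lie 79 probes, 11 of them red and above 0 and 7 red and below 0.

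Abhd16a, an enzyme that hydrolyses phosphatidylserine, showed the largest difference. Its probe ILMN_2731523 was at 7.79, 7.84 and 7.78 in the controls and at 11.10, 11.14 and 10.30 at 0.01 µg/ml, a difference of 3.04 ± 0.70 (adjusted p = 0.911). Its intensity before normalization was 187 and 201 in control replicates 2 and 3 and 2991.9, 3399 and 1510 in the treated arrays. The gene was near the floor in every control of this time and well above it in every treated array. The standard error pools the spread within all 18 groups, and several of them held both low and high values of this probe.

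Over the 46 arrays Abhd16a was below 8 on 7, between 8 and 9 on 1 and above 9 on 38. The low arrays were the 3 controls at 1 month, control replicate 1 at 6 months, replicate 1 of 0.01 µg/ml at 12 months and replicates 2 and 3 of 0.1 µg/ml at 12 months. Its difference between 0.01 µg/ml and control was 1.23 at 6 months and -1.13 at 12 months. Against the same 3 controls at 1 month the other doses showed 2.10 at 0.001, 2.32 at 0.1, 3.28 at 1 and 2.86 at 10 µg/ml. Fitted over the 1-month arrays alone, without the array that stood apart, the standard error was 0.27 and the adjusted p 0.000957, a setting chosen after the data were seen. Over 15 settings its adjusted p ran from 0.000957 to 1.00.

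Ibsp, the integrin-binding sialoprotein of bone, was high in part of the group. It was at 7.70, 7.85 and 7.95 in the controls and at 9.97, 9.85 and 7.84 at 0.01 µg/ml (1.39 ± 0.39, adjusted p = 1.00). Replicates 1 and 2 lay above the controls and replicate 3 among them. Without replicate 3 the difference was 2.08 (adjusted p = 0.0194). Its adjusted p ran from 0.00274 to 1.00 over 15 settings. Ibsp was below 8 on 33 of the 46 arrays and above 9 on 7.

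**Figure D3:**
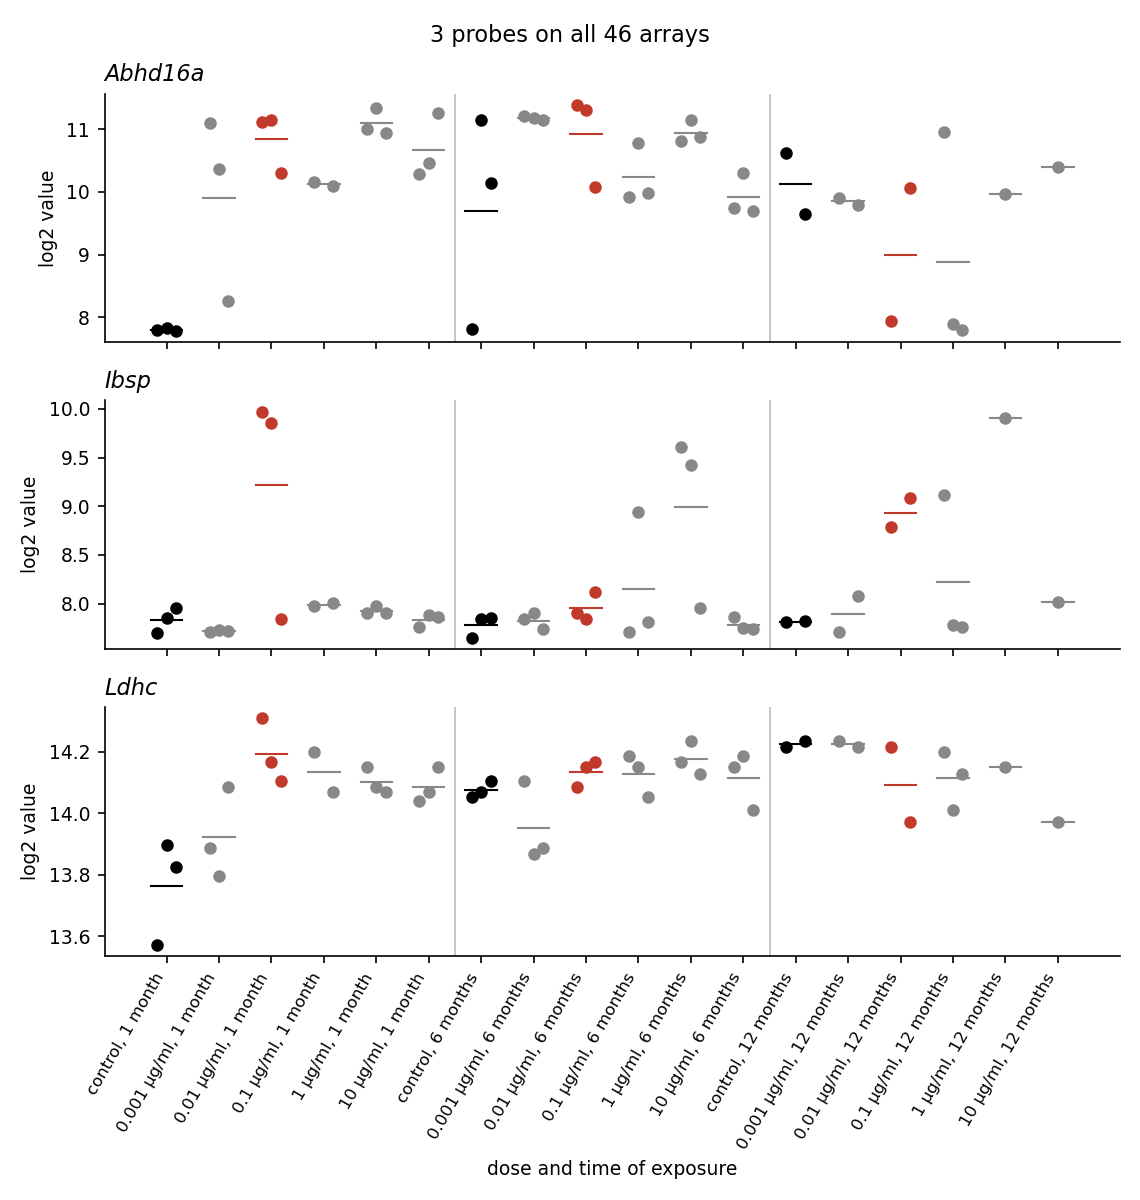
Log2 values (y axis) of Abhd16a, Ibsp and Ldhc on all 46 arrays, by dose and time (x axis), with a line at each group's mean. Black points are controls, red points 0.01 µg/ml and grey points other doses; the 3 controls at 1 month are at 7.78 to 7.84 for Abhd16a and at 13.57 to 13.90 for Ldhc.

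The remaining genes with the smallest p on the higher side serve cilia, RNA decay and telomeres. Bbs7, a subunit of the BBSome that carries proteins into cilia, was at 10.36, 10.60 and 10.62 in the controls and 10.74, 10.93 and 11.01 at 0.01 µg/ml (0.37 ± 0.10). Dis3, the nuclease of the RNA exosome, was at 7.71, 7.76 and 7.75 against 8.55, 8.39 and 7.95 (0.56 ± 0.15). Terf2ip, a telomere protein, was at 8.43, 8.50 and 8.69 against 9.02, 9.06 and 8.77 (0.41 ± 0.12). The other 3 probes of Terf2ip showed -0.02, 0.04 and -0.07, so the difference stood on 1 of 4 probes. In Dis3 and this probe of Terf2ip replicate 3 was the treated array nearest to the controls.

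Hook1, which links cargo to microtubules and is needed for the manchette that shapes the sperm head, differed by probe. Its probe ILMN_2642093 was at 8.41, 8.54 and 8.56 in the controls and 8.86, 9.54 and 8.54 at 0.01 µg/ml (0.48 ± 0.18). Its other 3 probes showed 0.03, 0.17 and -0.03. Replicate 2 was the highest and replicate 3 lay among the controls, so the groups overlapped.

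Genes on the lower side included sperm tail, lysosomal and mitochondrial proteins. Odf3b, a relative of a sperm tail protein found in outer dense fibres, was at 10.75, 10.48 and 10.42 in the controls and at 10.10, 9.94 and 10.00 at 0.01 µg/ml (-0.54 ± 0.13, adjusted p = 0.911). Its second probe showed -0.21 ± 0.12. Pard6a, a cell polarity protein, was at 10.39, 10.42 and 10.36 against 10.04, 9.89 and 10.03 (-0.40 ± 0.11). For both genes the groups did not overlap on either probe, with -0.19 ± 0.16 for the second probe of Pard6a. Neu1, the lysosomal sialidase, was at 8.76, 8.49 and 8.87 against 8.37, 8.36 and 8.40 (-0.34 ± 0.09), and its treated values were closer together than its controls.

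Mitochondrial genes on this side were Fis1, Dap3 and Mmadhc. Fis1, a receptor of mitochondrial fission, was at 10.12, 10.38 and 10.40 in the controls and 9.96, 9.61 and 9.91 at 0.01 µg/ml (-0.47 ± 0.14). Dap3, a protein of the mitochondrial ribosome, was at 12.94, 13.07 and 12.87 against 12.63, 12.53 and 12.81 (-0.30 ± 0.09). Mmadhc, which directs vitamin B12 within the cell, was at 10.68, 10.81 and 10.48 against 10.15, 10.01 and 10.24 (-0.52 ± 0.16). On these probes none of the 3 genes overlapped between the groups. The second probe of Fis1 showed -0.31 without overlap, whereas the other 3 probes of Dap3 showed -0.08, -0.19 and -0.15 with overlap.

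Protein synthesis and turnover were represented by Psmb1, a subunit of the proteasome core (-0.33 ± 0.09), and Eef1g, a subunit of translation elongation factor 1 (-0.26 ± 0.07). Psmb1 was lowest in replicate 3, at 10.45, against 10.82 and 10.67 in replicates 1 and 2 and 10.89 to 11.09 in the controls. Wdr13, a WD repeat protein, differed by -0.28 ± 0.08, with replicate 3 at 9.96 just under the lowest control at 10.00. Lancl1, a glutathione-binding protein, lay between 12.49 and 12.56 on control arrays and between 12.26 and 12.39 on treated ones (-0.21 ± 0.07). Further probes of Wdr13 (-0.11) and of Lancl1 (-0.12 and -0.08) overlapped.

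Some of the largest differences rested on single arrays, and in others an array lay apart from the rest of its group. Haus1, a subunit of the augmin complex of the spindle, was at 8.08 in treated replicate 1 and at 11.06 to 11.39 on the other 5 arrays, and its difference of -0.95 became 0.11 without that replicate. Pga5, a pepsinogen, was at 10.51 in control replicate 1 and 7.67 to 7.76 on the other 5, and its difference of -0.90 became 0.043 without that control. Rmnd1, a mitochondrial translation protein, was low in treated replicates 2 and 3, at 8.05 and 8.37, but at 10.56 in replicate 1. C8b, a chain of complement component 8, was at 9.24, 8.01 and 8.02 in the controls and 9.23, 9.21 and 9.44 at 0.01 µg/ml (0.87 ± 0.27), so that control replicate 1 lay among the treated arrays. Fcmr, the Fc receptor for IgM, had the same form (9.25, 7.91 and 7.96 against 9.32, 9.49 and 8.96, a difference of 0.89 ± 0.37). With single arrays left out, the difference ran from 0.66 to 1.28 for C8b and from 0.65 to 1.33 for Fcmr.

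Other large differences were taken from the probes whose groups did not overlap (10.3% of all probes). That all 3 treated arrays lay on the same side of the controls was thus part of the choice. Rgcc, a regulator of the cell cycle, was at 9.39, 9.74 and 9.83 in the controls and 8.98, 8.76 and 8.81 at 0.01 µg/ml (-0.80 ± 0.25). Pccb, a subunit of the mitochondrial propionyl-CoA carboxylase, was at 8.95, 9.10 and 8.98 against 8.22, 8.59 and 8.39 (-0.61 ± 0.24), while its second probe showed -0.05 with overlap. Stard7, which carries phosphatidylcholine to mitochondria, was at 7.97, 8.05 and 7.99 against 8.83, 8.60 and 8.65 (0.69 ± 0.29). A brighter probe of Stard7, at 9.16, 9.53 and 9.06 against 9.32, 9.57 and 9.31, showed 0.15 with overlap, and a dim one -0.0033.

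Rpusd4, a pseudouridine synthase of mitochondrial RNA, lay between 7.78 and 7.81 on control arrays and between 8.20 and 8.72 on treated ones (0.65 ± 0.31). Lrrc46, a leucine-rich repeat protein of the sperm flagellum, was at 11.57 to 12.62 against 12.94 to 13.25 (0.81 ± 0.51), and Adam6a, a membrane protein of the ADAM family in sperm, at 9.51 to 10.11 against 10.15 to 10.68 (0.71 ± 0.54). Klk1b26, a tissue kallikrein, was at 10.36 to 10.61 against 8.58, 9.95 and 10.35 (-0.83 ± 0.33), and Tmem14c, a mitochondrial protein of haem synthesis, at 8.92 to 9.61 against 8.89, 8.81 and 7.69 (-0.70 ± 0.56). In the last 2 genes 1 treated array made most of the difference: replicate 1 for Klk1b26 and replicate 3 for Tmem14c, whose other probes showed -0.13 and -0.21.

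By chromosome the share of probes with an unadjusted p under 0.05 was highest among autosomes on chromosome 17. There it was 31 of 714 (4.34%), against 2% of all probes tested. Within it, 87 probes of 60 genes from H2-K1 to H2-D1, the mouse major histocompatibility complex, were set apart after these values had been seen. Of these 87 probes 12 had an unadjusted p under 0.05 (13.8%), 4 higher and 8 lower, and 18 did not overlap (20.7%). Over all probes tested these shares were 2% and 10.3%. The median size of a difference was 0.09, against 0.04 over all other probes. On the rest of the chromosome 19 of 627 probes had an unadjusted p under 0.05 (3.03%), and 11.3% did not overlap.

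Antigen presentation genes of this stretch did not share a direction. H2-K1, a class I histocompatibility antigen, was at 8.21, 7.91 and 8.34 in the controls and 7.72, 7.76 and 7.74 at 0.01 µg/ml (-0.41 ± 0.14). H2-DMb1, which helps to load peptides on class II molecules, was at 7.98, 8.08 and 8.22 against 7.87, 7.85 and 7.88 (-0.23 ± 0.09). H2-Ab1, the beta chain of a class II molecule, showed -0.77, -0.36, -0.28 and 0.28 on its 4 probes. On probe ILMN_2607675 it was at 9.27, 8.21 and 9.40 in the controls and 8.37, 8.07 and 8.13 at 0.01 µg/ml, so control replicate 2 lay among the treated arrays. Probes of 1 gene that disagree in direction leave the level of H2-Ab1 undecided. Other antigen presentation genes lay near 0 and overlapped: H2-D1 (0.09) and H2-DMa (0.04), Psmb8 (-0.03) and Psmb9 (0.01) of the immunoproteasome, the peptide transporter subunit Tap2 (-0.0021), H2-Eb1 (-0.05) and H2-Eb2 (-0.0031).

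The stretch also holds Abhd16a and Neu1. Nelfe, a subunit of the negative elongation factor of RNA polymerase II, was at 11.35, 11.08 and 11.20 against 11.05, 11.01 and 10.86 (-0.24 ± 0.08). Its second probe showed -0.22 ± 0.17, also without overlap. Mpig6b, an inhibitory receptor of platelets, was at 7.85, 8.01 and 8.01 against 7.77, 7.77 and 7.78 (-0.18 ± 0.06). Msh5, a meiotic recombination protein, differed by -0.12 and Gpank1, a G-patch protein, by -0.14, each on a probe with a mean of 7.79 over the 46 arrays. Other probes overlapped, at -0.09 and -0.03 for Msh5 and, on a brighter probe, -0.12 ± 0.29 for Gpank1. Higher were Notch4, an endothelial Notch receptor (0.25 ± 0.11), and Dxo, a decapping enzyme (0.26 ± 0.13), both with overlap. The second probe of Notch4 showed 0.11 ± 0.11 with overlap and that of Dxo 0.25 ± 0.13 without.

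**Figure D4:**
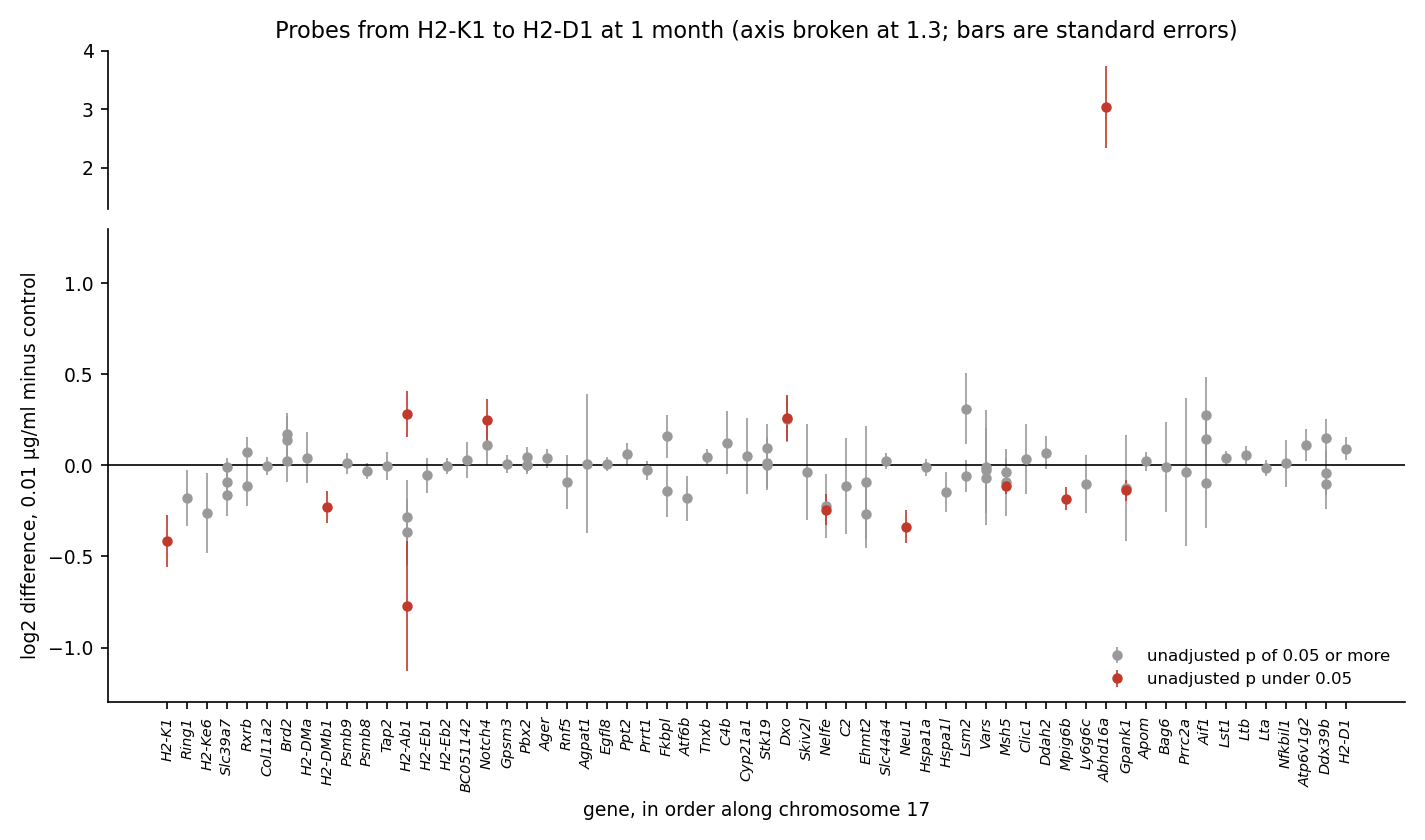
Log2 difference between 0.01 µg/ml and control at 1 month (y axis, broken at 1.3), with standard errors, for the 87 probes from H2-K1 to H2-D1, by gene in chromosome order (x axis). The 12 red probes have an unadjusted p under 0.05; Abhd16a stands alone at 3.04.

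Cell type genes showed no called member in any of the 13 lists. Here each gene counts by its brightest probe. Over all 10667 genes tested 216 had an unadjusted p under 0.05 (2.02%), and 9.95% did not overlap (4.71% above and 5.24% below). The median difference was -0.0041, and 5062 of the 10667 genes were above 0. Spermatogonial genes had a median of -0.04 over 11 genes and none under 0.05. The spermatocyte median was -0.01 over 19 genes, with 1 not overlapping above and 4 below (26.3%): Ldhc above, and Pgk2, Tex101, Ybx3 and Spag6l below. Another probe of Ybx3, ILMN_1234336, overlapped, at 11.18, 11.32 and 11.13 in the controls and 11.38, 12.84 and 10.79 at 0.01 µg/ml. Of 25 round spermatid genes (median 0.0075), Acrv1, an acrosome protein, at 12.01, 12.23 and 12.26 against 12.48, 12.27 and 12.49, and Tex21 did not overlap and were higher, by 0.25 and 0.27. Elongating spermatid genes had a median of -0.01 over 24 genes, with Prm1 and Gsg1 (0.18) under an unadjusted p of 0.05. In a whole testis, fewer cells of a type and less RNA per cell cannot be told apart.

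Among somatic cells, Sertoli cell genes had a median of -0.05 over 22 genes, with 7 of 22 above 0. Of them 3 did not overlap, all below (13.6%, against 9.95% of all genes). Amhr2, the receptor of anti-Müllerian hormone, was at 12.07, 12.25 and 12.12 in the controls and 11.86, 12.11 and 11.82 at 0.01 µg/ml (-0.22 ± 0.10), an overlap of 1 array. Clu, the secreted chaperone clusterin, was at 13.08, 13.26 and 13.03 against 12.96, 12.72 and 12.99 (-0.23 ± 0.13). Cst9, a cystatin of the gonad, was at 12.69, 12.99 and 12.71 against 11.91, 12.66 and 12.19 (-0.54 ± 0.47).

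Leydig cell genes had a median of 0.05 over 20 genes and none under an unadjusted p of 0.05. Of the 20, 12 were above 0, and their differences ran from -0.57 to 0.48 over the list. Hsd17b3, the last enzyme of testosterone synthesis in the testis, was at 9.24, 9.78 and 9.66 in the controls and 9.08, 9.12 and 9.22 at 0.01 µg/ml (-0.42 ± 0.22), just without overlap. Endothelial genes had 2 of 12 above 0 and a median of -0.03, macrophage genes 6 of 14 and -0.0021. Without overlap were 2 endothelial genes (16.7%) and 1 macrophage gene (7.14%), all below, against 9.95% of all genes. The peritubular myoid and smooth muscle median was -0.05 over 8 genes. Wfdc10 of the epididymis list was at 9.31, 9.63 and 9.37 against 8.95, 8.96 and 9.08 (-0.44 ± 0.15), while 5 of the 7 genes of that list were above 0. Epididymis, adipose, lymphocyte and blood lists rested on 7, 9, 2 and 5 genes, with medians of 0.04, 0.01, -0.04 and -0.10.

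Genes of acrylamide handling and of the stress responses did not stand apart either. Of 26 acrylamide and glutathione metabolism genes 10 were above 0, with a median of -0.03. Gstp1, a glutathione S-transferase, was the only member without overlap (3.85%, against 9.95% of all genes). It was at 9.85, 9.59 and 9.68 in the controls and 10.06, 10.07 and 10.35 at 0.01 µg/ml (0.46 ± 0.24). Of 29 oxidative stress genes and NRF2 targets 9 were above 0, with a median of -0.05, or -0.03 in replicates 1 and 2 and -0.12 in replicate 3. The p53 targets had a median of -0.00012 over 24 genes, with 1 above and 4 below without overlap (20.8%, against 9.95% of all genes). The 4 below were Zmat3 (-0.14), Sesn1 (-0.08), Rrm2b (-0.07) and Chek2 (-0.05), none under an unadjusted p of 0.05. Tnfrsf10b, a death receptor and p53 target, was at 8.25, 7.78 and 8.31 against 8.66, 8.45 and 8.93 (0.57 ± 0.18, unadjusted p = 0.00383), and its other probes showed 0.35 and 0.04.

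DNA repair and meiosis lists lay near 0 as well. Base excision repair had a median of -0.01 over 22 genes. Without overlap were Pcna (0.17) and Aplf (0.04) above and Pold1 and Lig1 (-0.13) below (18.2%, against 9.95% of all genes). Pold1, the catalytic subunit of DNA polymerase delta, was at 8.96, 8.95 and 8.97 in the controls and 8.86, 8.73 and 8.61 at 0.01 µg/ml (-0.22 ± 0.11). Meiotic recombination genes had a median of -0.01 over 18 genes, with Smc1b, the meiotic cohesin subunit, at 10.59, 10.40 and 10.41 against 10.71, 11.22 and 10.72 (0.42 ± 0.30).

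Chaperone genes had no common direction, and 13 of 28 heat shock and unfolded protein genes were above 0. Their mean level was 10.28, 10.36 and 10.32 in the controls and 10.34, 10.44 and 10.27 at 0.01 µg/ml. The 2 members without overlap (7.14%, against 9.95% of all genes) were both higher, Hsp90aa1 and Hspa4. Hsp90aa1, an inducible HSP90, was at 8.74, 8.89 and 8.79 in the controls and 9.05, 9.74 and 8.89 at 0.01 µg/ml (0.42 ± 0.22). Hspa4 was at 9.49, 9.37 and 9.45 against 9.60, 10.05 and 9.66 (0.33 ± 0.17), and Hspa5, the chaperone BiP of the endoplasmic reticulum, at 8.10, 8.22 and 8.13 against 8.41, 8.58 and 8.17 (0.24 ± 0.11). Replicate 2 was the highest array for each. The member lowest against control was Xbp1, a transcription factor of the unfolded protein response, at 9.52, 9.36 and 9.38 against 9.46, 9.02 and 9.21 (-0.19), with overlap.

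Germ cell energy metabolism had a median of 0.00022 over 26 genes, with 3 above and 3 below without overlap (23.1%, against 9.95% of all genes). Besides Ldhc the higher ones were Slc2a3, a glucose transporter (0.13), and Cycs, somatic cytochrome c (0.07). Lower were Pgk2, the phosphoglycerate kinase of germ cells, at 14.09, 14.01 and 13.97 against 13.92, 13.90 and 13.78 (-0.16 ± 0.08), Pfkp (-0.21) and Tpi1 (-0.23). Ldhc and Pgk2, both isoenzymes of germ cells, thus went in opposite directions, and neither passed the test. Of 40 genes of the manchette and spermatid transport, Kif3a, a subunit of kinesin II, was at 10.77, 10.72 and 10.71 against 10.81, 11.42 and 11.21 (0.41 ± 0.17), and Tuba3a, a testis alpha-tubulin, differed by -0.24 ± 0.10 with overlap.

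For the other lists the medians were 0.03 (34 polyubiquitin and ubiquitin conjugation genes), -0.0038 (10 bone and matrix sialoproteins), -0.01 (14 immediate early genes), -0.01 (16 interferon response genes) and -0.02 (18 cholesterol synthesis genes). Idi1, an isomerase early in cholesterol synthesis, was at 7.77, 7.86 and 7.75 in the controls and 7.87, 8.03 and 8.08 at 0.01 µg/ml (0.20 ± 0.08). No list had a called member. With replicates 1 and 2 alone, the largest list median in size was -0.07, for peritubular myoid and smooth muscle cells, a setting chosen after the data were seen.

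**Figure D5:**
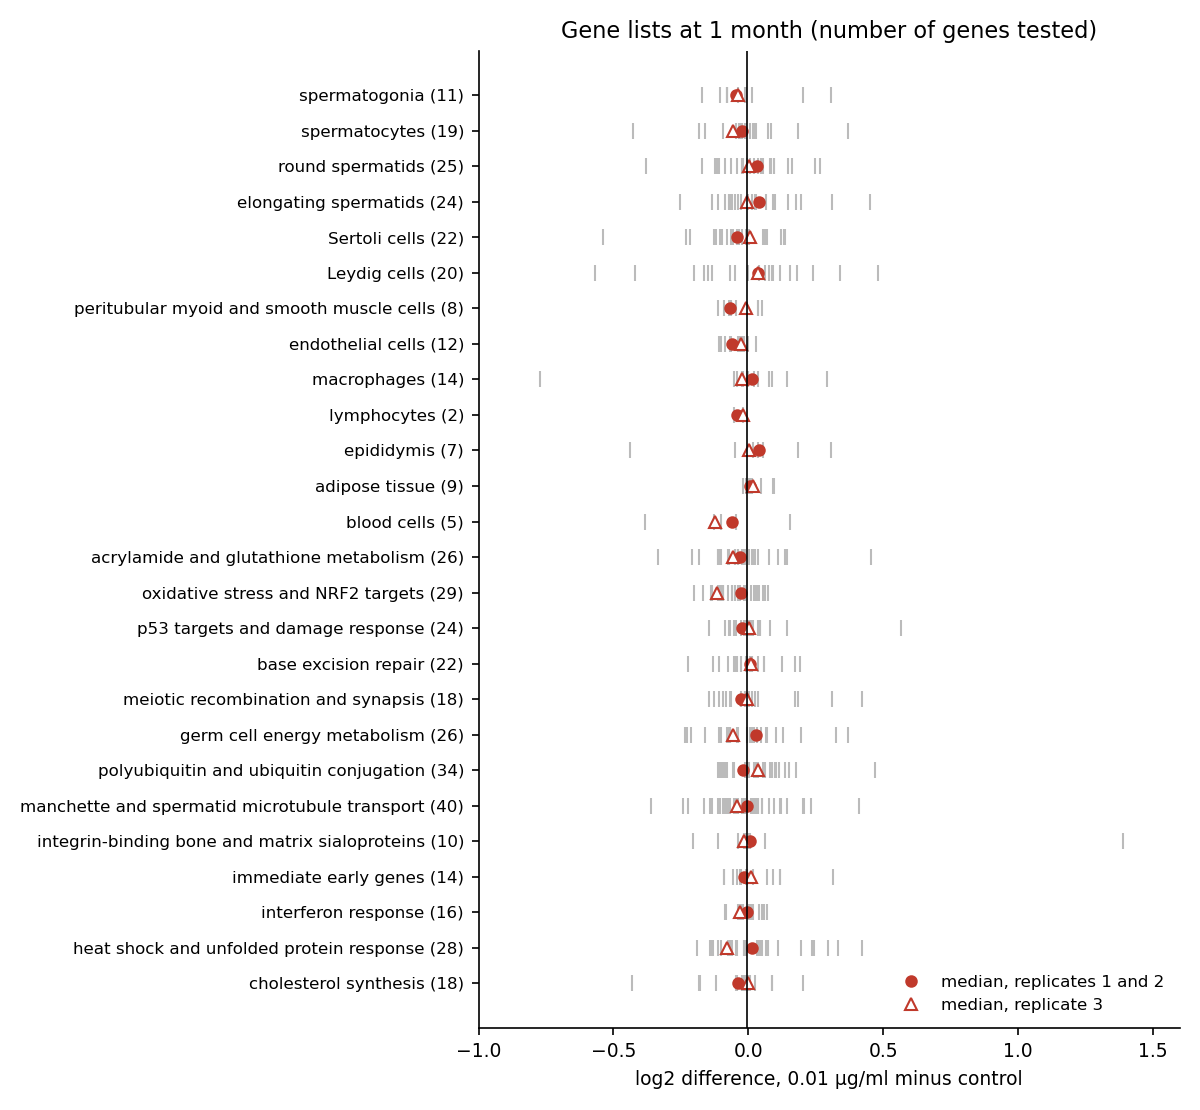
Log2 difference between 0.01 µg/ml and control at 1 month (x axis) for 26 gene lists (y axis, with the number of genes tested). Grey ticks are single genes, filled circles the list's median for replicates 1 and 2 and open triangles that for replicate 3; the black line is the median of all genes, and the lone tick at 1.39 is Ibsp.

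Replicate 3 of 0.01 µg/ml was compared with replicates 1 and 2 because its sample number falls in another set. The sets are taken from sample numbers, and as a random block their correlation was -0.0024. Replicate 3 minus the mean of replicates 1 and 2 was set against 0.1 and 1 µg/ml (5 arrays of the second set) minus control at 1 month, which share no array with it. Across the 15418 probes the slope was 0.647, Pearson's r was 0.521 and 63.2% had the same sign, as a description, since genes are not independent replicates. In the 1000 probes with the largest step 87.1% had the same sign. Set and dose cannot be told apart for those 5 arrays. The departure of replicate 2 from the other arrays enters replicate 3 minus the mean of replicates 1 and 2.

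With the set as a fixed term the estimate is that of replicates 1 and 2 against the controls. Then 4 probes passed at an adjusted p under 0.05 (0.0259%), and 497 had an unadjusted p under 0.05 (3.22%). They were Ldhc (0.47 ± 0.09, adjusted p = 0.0407), Ibsp (2.08 ± 0.36, adjusted p = 0.0407), Hook1 (0.70 ± 0.13, adjusted p = 0.0407) and an unnamed transcript, ILMN_2975779 (0.64 ± 0.12, adjusted p = 0.0488). The unnamed transcript was at 8.65, 8.68 and 8.83 in the controls and 9.04, 9.68 and 8.52 at 0.01 µg/ml. Without the array of 0.001 µg/ml that stood apart, the same fit called 16 probes, among them Abhd16a (3.32), Ubb-ps (0.37), Pgp (0.41) and Terf2ip (0.50).

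Replicate 2 lay outside the range of the other 5 arrays for 45.1% of probes and replicate 3 for 45.7%, against 22.1 to 30.8% for each of the other 4. Among the genes in which replicate 2 lay far from the other 5 arrays, Ropn1, a protein of the sperm fibrous sheath, was at 12.53 in it and at 11.16 to 11.36 on the other 5 arrays. Fhl4, a LIM protein of the testis, was at 13.00 in it and at 11.48 to 11.84 elsewhere. Prss40, a testis serine protease, was at 7.73 in it and at 9.04 to 9.37 elsewhere. A probe of Ybx3, a germ cell Y-box protein (ILMN_1234336), was at 12.84 in it and 10.79 to 11.38 elsewhere. These genes were chosen after their values were seen.

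Neither neighbouring dose differed from 0.01 µg/ml by a called probe. Against 0.1 µg/ml 0 of 15418 probes passed in limma (0%), with 895 at an unadjusted p under 0.05 (5.8%). Akap1, a mitochondrial anchor of protein kinase A, showed the smallest p on the higher side, at 11.23, 11.40 and 10.41 at 0.01 and 10.23 and 9.99 at 0.1 µg/ml (0.90 ± 0.21), and Klk1b26 the smallest on the lower (-1.61 ± 0.37). Both arrays of 0.1 µg/ml are of the second set, and with the set as a fixed term the differences were 0.30 for Akap1 and -0.89 for Klk1b26 (adjusted p = 1.00 for both). Against 0.001 µg/ml 0 probes passed (0%) and 4468 had an unadjusted p under 0.05 (29%). That group holds the array that stood apart, and without it 0 probes passed as well while the count at an unadjusted p under 0.05 fell to 407. Without replicate 1 or 2 of 0.001 µg/ml, so that the array weighed more, 5070 and 5311 probes passed.

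Against the same 3 controls, the other doses of 1 month showed 0.16, 0.37, 0.34 and 0.32 for Ldhc at 0.001, 0.1, 1 and 10 µg/ml, beside 0.43 at 0.01 µg/ml. For Ubb-ps they showed 0.39, 0.73, 0.63 and 0.56, and for Odf3b -0.19, -0.38, -0.33 and -0.24. H2-Ab1 on ILMN_2607675 was at -0.66, -0.80, -0.69 and -0.82. Ibsp was at -0.12, 0.16, 0.09 and 0.00. These comparisons share their controls, so a control value that lies off moves all of them.

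Later time points share no array with the comparison. Their mice were also older, at 11 to 12 and 16 to 17 months, so time of exposure and age cannot be told apart. At 6 months 47.5% of all probes tested had the same sign as at 1 month, and at 12 months 49.1%. Of the 308 probes with an unadjusted p under 0.05 at 1 month, 127 (41.2%) had the same sign at 6 months and 117 (38.0%) at 12 months. Ldhc differed from control by 0.06 at 6 and -0.13 at 12 months, Odf3b by 0.06 and 0.23, and Ibsp by 0.17 and 1.12. In the test of the difference between 6 months and 1 month 0 probes passed (0%), with 930 at an unadjusted p under 0.05 (6.03%). Between 12 months and 1 month 5 passed (0.0324%), with 823 at an unadjusted p under 0.05 (5.34%): Nelfe, Fhod1, Atat1 and Mpig6b, which were below control at 1 month and above it at 12 months, and Plscr4 the other way.

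Those 5 calls rested on few arrays, 2 against 2 at 12 months. With the set as a fixed term 0 passed. The count was also 0 without control replicate 3, treated replicate 2 or treated replicate 3 of 1 month, and without control replicate 1 or either treated array of 12 months. It was 1 without control replicate 2 of 1 month and 2 without control replicate 2 of 12 months.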

How the data were processed

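The authors deposited processed values on the log2 scale, 1 column per array, made with lumi per the submitters' processing notes; no version or setting of lumi is given in the sources used here. They also deposited non-normalized bead intensities on a linear scale, but only 12 of the 45 columns used list them in the same order as the probe names. These 12 hold the arrays whose intensities are given, and the column named 1 (1 column, control replicate 1 of 1 month) was not used. All tests used the log2 values. Differences of dim probes are smaller on that scale than on the log2 of the intensities.

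Probes took their genes from the platform annotation: of 25697 probes, 23978 carried 1 symbol and 1719 carried none (0 carried several), and 23962 symbols matched RefSeq. No genome build is named in the files. The dimmest 40% of probes by mean over the 46 arrays were left out, which left 15418. They were fitted in limma (version 3.58.1, in R 4.3.3) by group means of the 18 dose and time groups with 1 spread pooled over all arrays, and p-values received a Benjamini-Hochberg adjustment over all of these probes (threshold 0.05). The fit was tested on simulated data. All p-values are two-sided. The number of arrays limits the precision.

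The comparison, the 26 gene lists and the genes known from earlier results were chosen with earlier results of these data known. Named are the 10 higher and 10 lower probes with the smallest p, the 5 and 5 with the largest difference overall and among groups without overlap, those called with the set as a fixed term, the 3 list members with the smallest p and, for the other comparisons, the 3 and 3 with the smallest p. Unnamed transcripts were skipped there. List members without overlap, the genes of chromosome 17 and those of replicate 2 were added after their values were seen.

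Replicate numbers were taken as not pairing the samples: the deviations of same-numbered control and treated arrays from their group means correlated by 0.011, 0.073 and -0.023. Alternatives were another pool of arrays, the set as a fixed term or random block, the replicate block, each array left out, the filter on dim probes, the intensity scale, cyclic loess, an intensity trend and array weights. Promoter windows are RefSeq's, of GRCm38.p6.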

Additional observations from a re-analysis of the deposited data

Results flagged for a closer look

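The effect of 0.01 µg/ml differed between 12 months and 1 month, by the test of the difference itself, for 5 probes. The mice also differed in age, 16 to 17 months against 3 to 6 months per the labels. For Nelfe, a subunit of the negative elongation factor, the 12-month effect minus the 1-month effect was 0.78 ± 0.13 (limma adjusted p = 0.0226). Its values at 1 month were 11.35, 11.08 and 11.20 in the controls and 11.05, 11.01 and 10.86 at 0.01 µg/ml. At 12 months they were 10.38 and 10.55 in the controls and 10.95 and 11.05 at 0.01 µg/ml. The treated arrays of both times lay within 0.2 of each other, and the controls were high at 1 month and low at 12 months. The second probe of Nelfe was not called. It showed -0.22 ± 0.17 at 1 month and 0.20 ± 0.21 at 12 months.

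For Atat1, the acetyltransferase of alpha-tubulin, the difference was 0.67 ± 0.13 (adjusted p = 0.0307), with controls at 8.17 to 8.50 and treated arrays at 8.08 to 8.18 at 1 month, and controls at 7.95 and 8.06 and treated arrays at 8.44 and 8.52 at 12 months. For Fhod1, a formin that assembles actin, it was 0.64 ± 0.12 (adjusted p = 0.0307). For Mpig6b, the platelet receptor, it was 0.51 ± 0.10 (adjusted p = 0.0307). For Plscr4, a phospholipid scramblase, it was -0.40 ± 0.07 (adjusted p = 0.0226), with controls at 7.82 to 7.86 at 1 month and at 8.19 and 8.22 at 12 months, and treated arrays at 7.88 to 7.94 at both times. The probe of Mpig6b had a mean of 7.89 over the 46 arrays, near the cut of 7.76 under which probes were left out. The values of Plscr4 at 1 month lay near that cut too. With the set as a fixed term the adjusted p of the 5 probes ran from 0.166 to 0.706.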

How the results depend on the processing

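For 0.01 µg/ml against control at 1 month the count of probes called was 0 (308 at an unadjusted p under 0.05). It was 4 (497) with the set as a fixed term, 16 (1081) with it and without the array that stood apart, 1 (185) within the first set, 11 (1261) with array weights and 1 (758) over the 1-month arrays without that array, a setting chosen after the data were seen. It stayed 0 over the 6 arrays alone (754), the 17 arrays of 1 month (230), the set as a random block (308), no filter (700), the dimmest 20% (475) or 60% (201) left out, the log2 intensity scale (290), cyclic loess (307) and a trend with robust variances (300). With the replicate number as a block it was 0 (306), and the numbers are not known to pair the samples. The 11 calls with array weights included Ldhc, Abhd16a, Ibsp, Ubb-ps, Pgp, Dis3 and Neu1.

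Leaving out 1 array at a time gave 0 to 1 calls. The call was Ldhc without control replicate 2 or the array that stood apart, Slc15a4 without treated replicate 1, Ibsp without treated replicate 3 and Ubb-ps without replicate 1 of 0.01 µg/ml at 6 months. The other comparisons ran from 0 to 5311 calls (0.001 µg/ml), 0 to 8 (0.1 µg/ml; 8 without treated replicate 3, 4 without 0.1 µg/ml replicate 1), 0 to 265 (6 months minus 1 month; 265 without replicate 1 of 0.01 µg/ml at 6 months) and 0 to 7 (12 months minus 1 month). Groups without overlap ran from 2752 to 3766, since 3 against 2 arrays overlap less often. With the set as a fixed term the counts were 2 against 0.001 µg/ml, 1 for 6 months minus 1 month and 0 for 12 months minus 1 month, and with cyclic loess 4 against 0.001 µg/ml. Leaving out arrays, Haus1 ran from -1.55 to 0.11 (without treated replicate 1) and Pga5 from -1.37 to 0.043 (without control replicate 1). Of the 36 named probes run under these settings, the other 34 kept their direction in each; genes named only in the lists, on chromosome 17 or for other comparisons were not run.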
